A study of Mus musculus with 2 samples.

Results

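Of the 20868 probes on an expression array, 111 met limits on signal and spot evenness and read at least 2-fold higher in the epidermis of newborn Casp-8F/–K5-Cre mice, whose keratinocytes are to lack caspase-8, than in that of Casp-8F/+K5-Cre mice. These 111 probes, called the members, were chosen by their ratio on the epidermis array: the background-subtracted signal of Casp-8F/–K5-Cre epidermis over that of Casp-8F/+K5-Cre epidermis, centred on the median of all probe spots, had to reach 2. The larger of both signals had to be at least 200 scanner units, their geometric mean under 10000, and the pixel SD of the spot at most 0.5 times its mean in both dyes. That ratio is therefore a description and carries no test. The rule did not use the second array, which held dermis, but both arrays share the probes and the dye orientation.

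Mice were 3 days old. Skin of 3 Casp-8F/+K5-Cre mice (F/+ from here on) and of 3 Casp-8F/–K5-Cre mice (F/-) was split with dispase, a protease, and the epidermal RNA of each genotype was pooled. The dermal pools held RNA of 3 F/+ and of 2 F/- mice. All groups carried K5-Cre, a Cre recombinase under the promoter of keratin 5, a keratin of the basal epidermal layer and of hair follicles, which reach into the dermis. All carried 1 F allele, by convention a floxed copy that Cre can inactivate. Read by the same convention, the other copy was inactive in all cells of F/- mice and wild-type in F/+ mice, so the F/- dermis also differed from the F/+ dermis in this copy. F/+ RNA was labelled with Cy3 and F/- RNA with Cy5 on both arrays, without a dye swap, so the preference of a probe for 1 dye and the genotype cannot be told apart on either array. With 1 array per layer there was no spread between mice or pools, and no p-value was computed.

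Caspase-8 is the protease that starts apoptosis downstream of death receptors such as Fas and the TNF receptor, and it also cleaves the kinases that otherwise drive necroptosis, an inflammatory form of cell death. The epidermis is a layered sheet of keratinocytes in which basal cells divide and their daughters differentiate into the barrier. Below it the dermis holds fibroblasts, vessels, nerves and immune cells. Keratinocytes are known to signal to the dermis through secreted cytokines and growth factors. The deposited files identify probes by the array maker's number only and 0 of them matched the gene table used here, so neither the caspase-8 transcript nor markers of keratinocytes, fibroblasts or immune cells could be looked up. The members are given by probe number, and the labelled layers were not checked against marker genes.

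Of the 20759 probes with an even spot on the epidermis array, 304 reached 2-fold. Of these, 163 had a geometric mean of 10000 or more and 30 stayed under 200 in both dyes, which left the 111. A further 14 probes reached 2-fold only on uneven spots. Among the 13265 probes that met the limits on signal and evenness, the members made up 0.837%. Members and those probes were about equally bright, with a median geometric mean of 725 against 712 scanner units. Every member was brighter in both dyes of the epidermis array than 95% of the 162 spots of negative controls. Spot noise was taken from 50 probes with 10 spots each. Spots of a probe differed in their log2 ratio by a pooled SD of 0.11 for epidermis and 0.063 for dermis, which rose to 0.17 and 0.093 for probes with a geometric mean under 300. This error is technical and says nothing about mice. RNA of whole layers was measured, so more RNA per cell and more cells that hold the RNA cannot be told apart.

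The members spanned a wide range of ratios. The median was 1.44 on the log2 scale, or 2.72-fold. Most lay close to the limit: 65 members were 2-fold to 3-fold higher in F/- epidermis, 14 were 3-fold to 4-fold, 23 were 4-fold to 8-fold and 9 were at least 8-fold higher, of which 3 passed 16-fold. Just inside the limit were A_51_P515056, with 372 scanner units in F/+ and 453 in F/-, and A_51_P386046, with 216 and 263. Both log2 ratios lay just above 1. Centring raised all of these ratios, since the median log2 ratio of all probe spots was -0.72 before it. Just outside were A_51_P131561 with signals of 8013 and 9701 and a log2 ratio of 0.99, and A_51_P133811 with 204, 246 and 0.99. Another 37 probes lay between 1.8-fold and 2-fold, so the limit cut through a continuous range.

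The strongest member was A_51_P386870. Its signals were 254 in F/+ epidermis, 9424 in F/- epidermis, 294 in F/+ dermis and 469 in F/- dermis. F/- epidermis stood 61.0-fold above F/+ epidermis (log2 ratio 5.93), and the dermis showed a smaller difference in the same direction (log2 ratio 1.28). A_51_P402943 followed with 1166 and 33489 in F/+ and F/- epidermis, a log2 ratio of 5.56. Its dermal signals were 2682 and 5238, a log2 ratio of 1.57. For this probe the dermis of both genotypes read above the F/+ epidermis. A_51_P435588 had 1944 and 21670 in the epidermis (log2 ratio 4.20) and, in the dermis, 328 and 690 (log2 ratio 1.68). It was already higher in epidermis than in dermis of F/+ skin, by 6.20-fold. A_51_P256827 had 2704 and 22975 in the epidermis (log2 ratio 3.81). Its dermal signals were 3732 and 4771 (log2 ratio 0.96), both below that of F/- epidermis.

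A_51_P140710 read 118 in F/+ and 858 in F/- epidermis (log2 ratio 3.58), against 101 and 67.0 in the dermis. A_51_P122321 had nearly the same epidermal ratio, 3.58, from 469 to 3402, with dermal signals of 598 and 474. A_51_P126275 went from 2368 to 13852 (log2 ratio 3.27), with 959 and 670 in the dermis. These 3 probes had dermal log2 ratios between 0.016 and 0.27, far below the epidermal ones. A_51_P184484 and A_51_P217463 had epidermal signals of 79.3 and 416 and of 78.9 and 408. Their epidermal log2 ratios were 3.11 and 3.09, but their dermal ones were 0.37 and -0.42. A_51_P128876, the tenth, had 2010 and 8863 in the epidermis, with a log2 ratio of 2.86. Its dermal signals of 13529 and 16275 exceeded both epidermal ones, so in this member F/- epidermis was not the highest pool. The dermal log2 ratio of this bright probe was 0.87 here but 0.20 in the authors' deposited table.

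**Figure D1:**
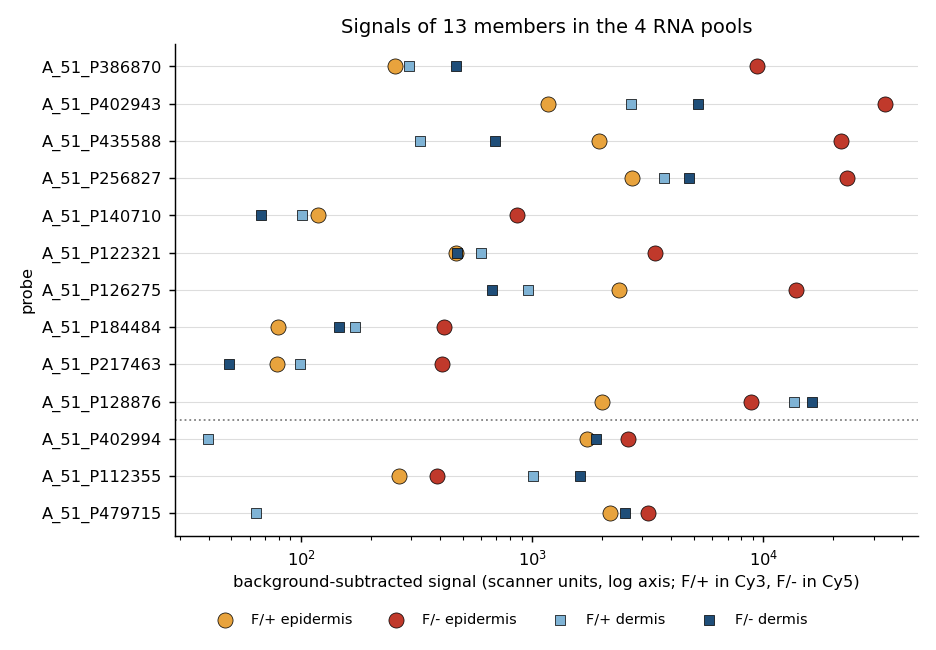
Background-subtracted signals (log axis, scanner units) of the 10 members with the highest epidermal ratio, above the dotted line, and of 3 members with a high dermal ratio, below it, in the 4 RNA pools. Circles are epidermis and squares dermis. Pools are not to be compared between probes. Signals are drawn without centring, and the median log2 ratio of F/- over F/+ was -0.72 in the epidermis and -0.60 in the dermis. F/- points thus lie low beside F/+ points of the same probe, and the centred ratios are those in the text. A_51_P386870 reads 9424 in F/- epidermis and 254 to 469 in the other pools, whereas A_51_P402994 is low in F/+ dermis only, at 39.7.

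The size of the difference depended on the normalization, for bright members in the authors' deposited table and for dim ones with loess. In the authors' deposited table A_51_P402943 was 26.2-fold higher, A_51_P435588 10.9-fold and A_51_P256827 8.24-fold, against 47.3-fold, 18.3-fold and 14.0-fold here. For A_51_P386870 that table has 47.7-fold and for A_51_P140710 11.6-fold, against 61.0-fold and 12.0-fold here, a smaller gap. The authors' deposited table holds an epidermal value for 110 of the 111 members. Of these 103 were at least 2-fold higher there, and the lowest was 0.85 on the log2 scale. With loess normalization 87 of the 111 reached 2-fold, and the lowest had 0.83. Loess lowered the log2 ratios of the dim A_51_P140710, A_51_P184484 and A_51_P217463 from 3.58, 3.11 and 3.09 to 3.08, 2.45 and 2.43. The bright A_51_P435588 and A_51_P256827 moved less, from 4.20 and 3.81 to 4.04 and 3.63.

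Of the members, 2 were printed on several spots and show how well 1 array repeats itself. A_51_P112223 had 9 even spots of 10 on the epidermis array, with F/+ signals of 187 to 236 (median 222) and F/- signals of 442 to 530 (median 475). Its log2 ratio was 1.89 ± 0.093 (SD, n = 9 spots of 1 array), with the lowest spot at 1.77. On the dermis array the 10 spots gave 0.29 ± 0.10, from 0.19 to 0.53, so the spots of both arrays did not overlap. A_51_P475138 had epidermal F/+ signals of 534 to 958 (median 724) and F/- signals of 698 to 1107 (median 981). The log2 ratio over its 10 spots was 1.11 ± 0.088, with the lowest at 0.90, just under the limit. In the dermis the ratio was 0.0046 ± 0.10, from -0.20 to 0.11. For both probes the difference between the layers was larger than the spread between spots, which is no measure of the spread between animals.

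On the dermis array, which the rule did not use, most members stayed near a ratio of 1. All 111 had an even spot there. The median dermal log2 ratio was 0.19, with quartiles of 0.014 and 0.46, against a median of 0.050 and quartiles of -0.069 and 0.19 for the 13260 probes that met the limits and were even on both arrays. The ratio was above 0 for 86 members, 77.5%, where 61.1% of those 13260 probes were. With loess the median of the members was 0.14 against -0.0059 for those probes, and 69.4% against 48.3% lay above 0. In the authors' deposited table the dermal median of the members was 0.16, and 72.1% lay above 0. The 13236 of those probes with a value there had a median of 0.0089, with 52.1% above 0. The members thus sat higher than the probes at large on each of these scales, by a shift small beside their epidermal ratio. Both arrays were labelled the same way round, and the part of a dye preference in this shift was not tested.

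**Figure D2:**
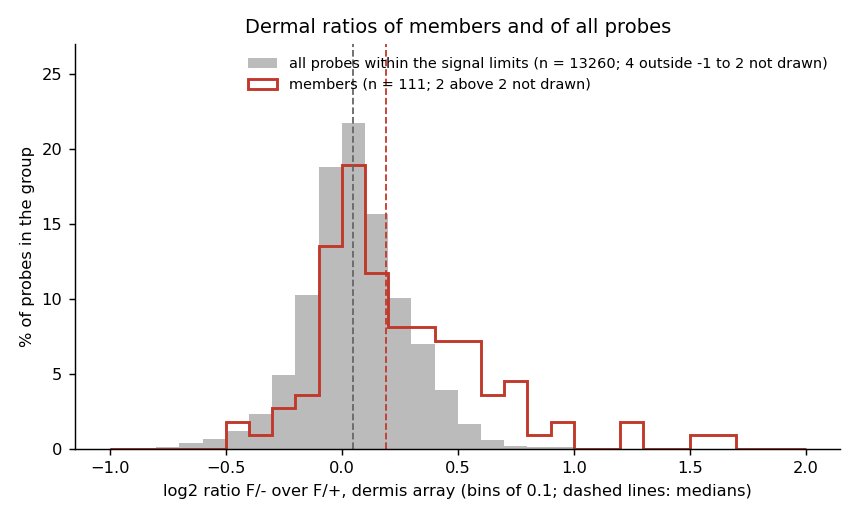
Distribution of dermal log2 ratios (F/- over F/+, bins of 0.1) as a share of the 111 members (red outline) and of all 13260 probes within the signal limits (grey), with dashed lines at the medians of 0.19 and 0.050. The members' outline lies further to the right, their upper quartile being 0.46 against 0.19.

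At least 1.5-fold higher in F/- dermis were 21 members, 18.9% of them, against 1.31% of the 13260 probes. In the authors' deposited table there were 15, against 0.272% of the probes, and with loess 11, against 0.204%. Of the 108 members whose dermal signals both exceeded the negative controls, 0 were 1.5-fold lower. Among all 13260 probes 93 were, so the count of the members is near that share. At least 2-fold higher were 6 members, 5.41%, against 0.106%, or 14 probes in all, so that members made up 42.9% of that list. The same 6 passed 2-fold with loess and in the authors' deposited table. They were A_51_P402994, A_51_P479715, A_51_P435588, A_51_P402943, A_51_P112355 and A_51_P386870, and 3 of them were the members with the highest epidermal ratios.

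Members with a larger epidermal ratio did not simply have a larger dermal one. The 9 members at least 8-fold higher in F/- epidermis had a median dermal log2 ratio of 0.37, ranging from -0.42 to 1.68. The 23 members between 4-fold and 8-fold had 0.54, the 14 between 3-fold and 4-fold had 0.18, and the 65 below 3-fold had 0.12. Across the 111 members Spearman's rho between both ratios was 0.25, against 0.29 across the 13260 probes. Both values are a description only, since each probe's spots share an array position and a dye pair on both arrays. The epidermal ratio exceeded the dermal one by 2-fold or more in 85 members and in 0.784% of the 13260 probes, a count that follows largely from the rule, since it contains the epidermal ratio. It lay below the dermal ratio in 3 members, namely A_51_P402994, A_51_P479715 and A_51_P112355.

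**Figure D3:**
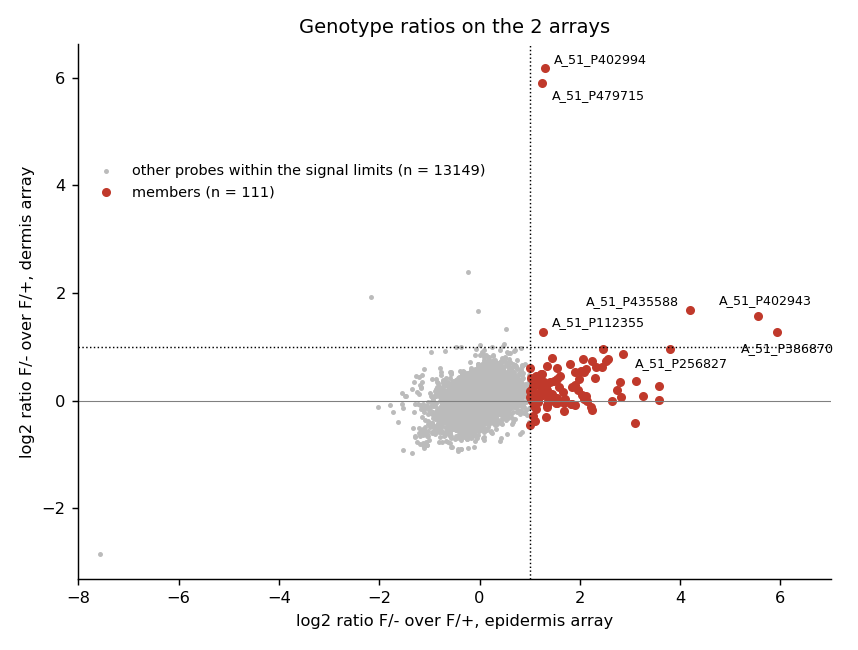
Log2 ratio of F/- over F/+ on the epidermis array (horizontal) and on the dermis array (vertical) for the 111 members (red) and the other probes within the signal limits (grey), 13260 probes in all; dotted lines mark 2-fold. All members lie right of the vertical line because the rule put them there, and 6 of them lie above the horizontal line, with A_51_P402994 and A_51_P479715 near 6.

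Those last probes followed patterns of their own. A_51_P402994 read 1720 in F/+ epidermis and 2589 in F/- epidermis, a log2 ratio of 1.31. In the dermis it read 39.7 in F/+, below the 95th percentile of 49.2 for the negative controls, and 1896 in F/-. On the centred scale used here F/- dermis was at least 58.5-fold higher, taking the lowest probe signal above that percentile for the F/+ dermis. A_51_P479715 read 2178 and 3159 in the epidermis (log2 ratio 1.25). Its dermal signals were 63.8 and 2532 (log2 ratio 5.92, or 60.4-fold). In both probes 3 of the 4 pools were bright and F/+ dermis alone was at or near background. Within F/+ skin epidermis was at least 36.9-fold above dermis for A_51_P402994 and 35.7-fold above it for A_51_P479715. Within F/- skin these layer differences were 1.39-fold and 1.23-fold. The authors' deposited table has dermal folds of 65.9 and 56.7 for these probes, and loess gave dermal log2 ratios of 5.03 and 5.08. The other 5 members at least 8-fold higher in epidermis than in dermis of F/+ skin had dermal log2 ratios from -0.049 to 0.97. Among them A_51_P362066, with a 24.2-fold layer difference, had -0.048 (0.070 in the authors' deposited table). A_51_P508530, named after its values were seen, had the highest, 0.97, with dermal signals of 457 and 588 and a 9.83-fold layer difference.

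A_51_P112355 changed alike on both arrays. Its signals were 266 and 387 in F/+ and F/- epidermis and 1011 and 1617 in F/+ and F/- dermis. The log2 ratios were 1.26 and 1.28, a difference of -0.020, which is within the spread between spots. This member was 3.51-fold higher in dermis than in epidermis of F/+ skin and 3.72-fold higher in F/- skin, so its layer difference was nearly equal in both genotypes.

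At the other end, the members with the lowest dermal ratios included signals near background. A_51_P386046 read 54.6 in F/+ and 26.3 in F/- dermis. The latter did not exceed the negative controls, whose 95th percentile was 28.7. On the centred scale used here the dermal signal was thus at least 1.25-fold lower in F/-. A_51_P217463 read 99.0 and 48.8 (log2 ratio -0.42), A_51_P340170 read 126 and 67.3 (-0.30), and A_51_P370552 read 60.1 and 32.4 (-0.29). A_51_P509573 read 511 and 257, with a log2 ratio of -0.39. With normexp the ratios of A_51_P386046 and A_51_P370552 turned to 0.026 and 0.064. A_51_P447754, named after its values were seen, did not exceed the negative controls in either dermal pool, at 47.7 and 28.0, so its dermal ratio, although counted above, rests on signals at background.

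By layer, the members were a mixed group. Epidermis and dermis were compared within 1 dye after quantile normalization between the arrays, with the F/+ levels first. In F/+ skin 25 members read at least 2-fold higher in epidermis, 22.5%, against 15.9% of the 13260 probes. A dermal excess of 2-fold or more was found for 39 members, 35.1%, against 11.6%. The remaining 47 lay between. A low F/+ epidermal signal favours a high ratio in the rule, so these counts are not independent of how the members were chosen. In F/- skin, where the raised signal itself enters, 58 members, 52.3%, read at least 2-fold higher in epidermis, against 15.9% of the probes, and 18, 16.2%, had a dermal excess of that size, against 12.2%. The median layer difference of the members moved from -0.34 on the log2 scale in F/+ skin to 1.07 in F/- skin, while that of the 13260 probes was 0.12 and 0.094.

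**Figure D4:**
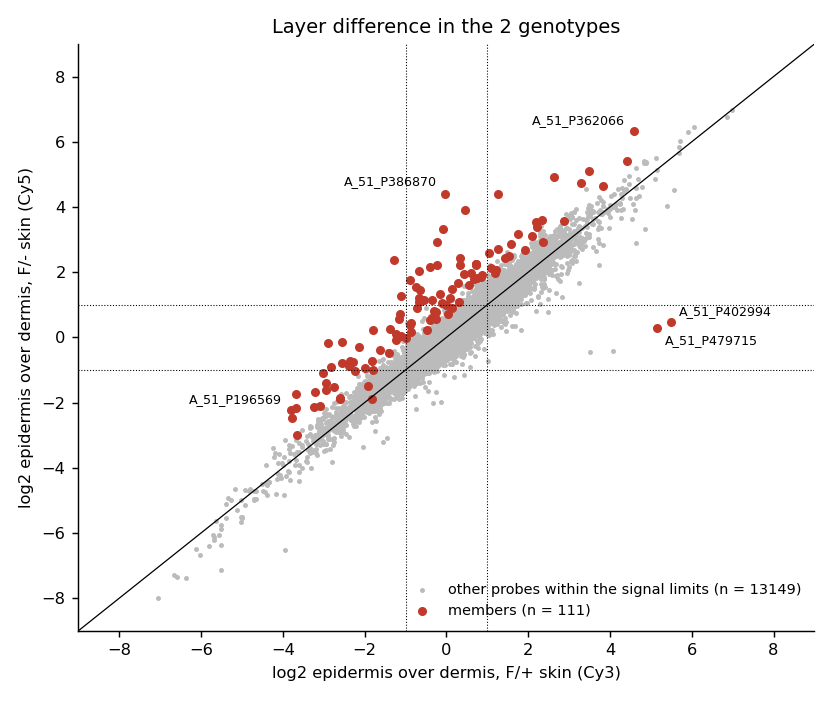
Log2 difference of epidermis over dermis in F/+ skin (horizontal, Cy3) and in F/- skin (vertical, Cy5) for the 111 members (red) and the other probes within the signal limits (grey), 13260 probes in all; the solid line marks equality and dotted lines 2-fold. Members lie above the line by construction wherever their dermal ratio is small; A_51_P402994 and A_51_P479715 lie far below it, at 5.50 and 5.16 in F/+ skin and 0.48 and 0.30 in F/- skin, where 5.50 rests on an F/+ dermal signal not above the negative controls (at least 36.9-fold).

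The members showed different layer patterns, and the groups described next overlap. For 57 members F/- epidermis stood at least 2-fold above each of the other 3 pools, of which the rule fixed the comparison with F/+ epidermis. At least 2-fold above both dermal pools were thus 51.4% of the members, against 14.4% of the 13260 probes. The F/- epidermal signal, which the rule asked to be raised, enters this share too. It is therefore not independent of how the members were chosen. The 57 held 19 of the 32 members that were at least 4-fold raised. A_51_P386870 had the highest ratio among them, with nearly equal layers in F/+ skin (1.02-fold higher in dermis) and a 21.1-fold excess of epidermis in F/- skin. A_51_P140710 and A_51_P217463 went from 1.38-fold higher in epidermis and 1.07-fold higher in dermis to 14.9-fold and 9.94-fold higher in epidermis. Of the 47 members between the layers in F/+ skin, 33 passed 2-fold towards epidermis in F/- skin. This crossing follows largely from the rule, which set the epidermal ratio. The median epidermal log2 ratio of the 47 was 1.49, and their median dermal ratio was 0.17. The count stands without a matching share for all 9611 probes between the layers.

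In another group, probes that read higher in dermis of F/+ skin mostly lay nearer to the dermal level in F/- epidermis. This direction follows largely from the rule, which asked for a raised F/- epidermal signal, wherever the dermal ratio is small. A_51_P112355, described above, did not move in this way. Of the 39 dermal members, 18 were still at least 2-fold higher in dermis of F/- skin, 19 lay between the layers and 2 had become epidermal. At least 2-fold below both dermal pools, even in F/- epidermis, were 12 members. This count and the split of the 39 stand without a matching share for all probes, so neither is read as a trait of the members. Over all 39 the median epidermal log2 ratio was 1.69 and the median dermal ratio 0.34. In F/- dermis 11 of the 39 were at least 1.5-fold higher and 2 at least 2-fold, against 1.31% and 0.106% of the 13260 probes. The 1535 dermal probes as a class had a median dermal log2 ratio of 0.092. The 1.5-fold count depended on the normalization. Bright A_51_P197528 had 0.77 here but 0.35 with loess and 0.24 in the authors' deposited table. The 2 past 2-fold, A_51_P402943 and A_51_P112355, also passed it with loess and in that table. The most dermal members were A_51_P196569, with epidermal signals of 156 and 374 and dermal ones of 2235 and 1942, A_51_P197528, with 829 and 2098 against 10039 and 11261, and A_51_P130104, with 119 and 261 against 1624 and 1022. They were 14.0-fold, 13.6-fold and 12.8-fold higher in dermis of F/+ skin, and 4.70-fold, 5.61-fold and 3.36-fold higher in dermis of F/- skin. In each of these the F/- epidermis lay between F/+ epidermis and dermis.

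Dermal probes as a class are described next, with the members among them chosen by their high ratio. Among the 146 probes whose F/+ dermis exceeded F/+ epidermis by 8-fold or more, 9 were members (6.16%, against 0.837% of all probes within the limits), and the median epidermal log2 ratio was 0.088, with quartiles of -0.062 and 0.30. For the 56 probes past 16-fold the median was 0.053 and the quartiles were -0.033 and 0.20, with 0 members. Beyond these values, the part of dermal RNA carried over into the F/- epidermis in the ratios of the dermal members was not tested. The share of members was raised at the opposite end too. Where F/+ epidermis exceeded F/+ dermis by 8-fold or more, 7 of 172 probes were members (4.07%). Past 16-fold in that direction, 4 of 56 were (7.14%). The dermal class is defined partly by a low F/+ epidermal signal, which also favours a high ratio in the rule.

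Of the 25 epidermal members, 23 were also epidermal in F/- skin, as were 83.7% of the 2114 epidermal probes. The exceptions were A_51_P402994 and A_51_P479715. The F/- epidermal signal, which the rule asked to be raised, enters the layer difference in F/- skin. That 23 stayed epidermal, and the rises given next, thus follow largely from the rule wherever the dermal ratio is small. The median layer difference of the 25 was 2.19 on the log2 scale in F/+ skin and 3.12 in F/- skin, and their median epidermal ratio was 1.26. A_51_P362066 had epidermal signals of 5099 and 10010 and dermal signals of 207 and 132, so its layer difference went from 24.2-fold in F/+ to 80.7-fold in F/- skin. A_51_P435588 went from 6.20-fold to 30.0-fold and A_51_P126275 from 2.41-fold to 20.9-fold.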

How the data were processed

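RNA pools of both genotypes were hybridised to 1 two-colour array per layer, per the labels. The authors deposited 1 scanner file per dye with the mean, median and SD of pixel intensity of each spot and its local background, as measured by the scanner program (version 5.0) and not yet corrected, per the file headers. The authors' deposited value table was used as log10 ratios of Cy5 over Cy3: in 10 intensity bins its slope on the log2 ratio of the signals was 0.269 to 0.301 (epidermis) and 0.272 to 0.294 (dermis), where log10 gives 0.301 (0.237 over all dermal spots), and r within bins was at least 0.975. Neither labels nor headers state its normalization.

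Net signals were the mean signal minus the median background. Log2 ratios were centred on the median over 21318 probe spots (-0.72 in the epidermis, -0.60 in the dermis), and even spots were averaged per probe. Python 3.11.15 was used, with limma 3.58.1 in R 4.3.3 for normexp (offset 50) and loess (span 0.3). The member rule was tested on simulated data.

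The members, lists and rules were chosen with earlier results of these data known. Named probes are the 10 highest epidermal ratios, the 5 highest and 5 lowest dermal ratios, the 3 most epidermal and 3 most dermal members in F/+ skin, members on several spots and those next to the limit. Gene lists could not be applied because 0 probes matched a gene. The number of arrays limits the precision.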

Additional observations from a re-analysis of the deposited data

Results flagged for a closer look

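In 6 members the ratio of F/- over F/+ was below 1 in the dermis by more than 3 pooled SDs between spots, although it was at least 2-fold above 1 in the epidermis. The dermal log2 ratios were -0.45 for A_51_P386046, -0.42 for A_51_P217463, -0.39 for A_51_P509573, -0.30 for A_51_P340170, -0.29 for A_51_P370552 and -0.20 for A_51_P398868. For A_51_P386046 the F/- dermis did not exceed the negative controls. Its ratio is therefore only a bound of at least 1.25-fold lower, and only on the centred scale used here. With 1 array per layer this difference between the layers was not tested. In the authors' deposited table these 6 probes have, in the same order, -0.27, -0.20, -0.37, -0.16, -0.094 and -0.18, each nearer to 0. The limit of 3 SDs was -0.19, and A_51_P340170, A_51_P370552 and A_51_P398868 did not pass it in that table. It used the dermal SD of 0.063, pooled over 50 probes of any brightness. For probes with a geometric mean under 300 the SD was 0.093, and the limit was not widened for them. The dermal signals of A_51_P386046, A_51_P217463, A_51_P340170 and A_51_P370552 lay in that dim range. The direction turned with normexp for A_51_P386046 (0.026) and A_51_P370552 (0.064), and with loess these were -0.059 and -0.0097. Loess gave -0.15 for A_51_P217463, -0.34 for A_51_P509573, -0.12 for A_51_P340170 and -0.18 for A_51_P398868. With loess only A_51_P509573 thus passed the limit.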

How the results depend on the processing

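Results with 1 array per layer show how values move with the processing, not how well they would repeat. The main values were 111 members, 6 of them 2-fold higher in F/- dermis, a median dermal log2 ratio of 0.19, and 86 with a ratio above 0. Without centring there were 41 members, 1 past 2-fold in the dermis, a median of -0.23 and 13 above 0, since every epidermal log2 ratio then lies 0.72 lower and every dermal one 0.60 lower. Without the limit on bright probes these values were 274, 79, 0.42 and 223, and the cause was not tested. With 1.5-fold as the limit in both layers there were 372 members, 42 past it in the dermis and 277 above 0; with 3-fold there were 46, 1 and 36, with a median of 0.32. Without a minimum signal the median was 0.12, over 141 probes. Normexp left 79 members, 54 of them above 0. The other settings run, namely background mean, median pixels, loess, the authors' deposited table, limits on uneven spots of 0.3 or none, a minimum of 500 and a geometric mean under 5000, kept the counts within 1.5 times, as did centring on even spots and a bright limit on the dermis array, both added after the data were seen. Layer counts stayed within 1.5 times under quantile, median and no scaling between arrays. Of 144 alternative epidermal log2 ratios of the named probes 124 were still at least 1, and 10 of those under 1 came without centring. Of all 288 alternative values of named probes, 134 stayed within 1 spot SD of the main value and 154 did not. Dim signals limit the dermal ratios. No paired analysis was possible because the labels number no replicates.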

Other observations

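Members were spread over the array. By position on the slide 24, 27, 26 and 34 of them lay upper left, upper right, lower left and lower right, where 25.0%, 26.2%, 24.1% and 24.7% of the 13265 probes within the limits lay. Of the 1257 control spots and spots without a name on the epidermis array, 0 met the rule. The rule takes only spots with a probe number, so none of these could be a member.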
